A study of Drosophila melanogaster with 24 samples.

Results

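The pteridine eye pigments of the fly were followed through 7 genes, Pu, pr, se, cl, Hn, ry and bw. They were chosen by name from a count table of 16722 genes, and their 15 transcripts from tables of 35411 transcripts. RNA came from heads of Drosophila melanogaster of strain w1118, labelled as the wild-type control of the mutant, and of the cwo5073 mutant strain. The product of cwo (clockwork orange) represses transcription in the daily clock, and the design sets head transcripts with and without its mutation side by side through the day. Flies were kept in 12 h of light and 12 h of dark at 25 °C for 3 days, and heads were taken at zeitgeber time (ZT, hours after lights on) 2, 6, 10, 14, 18 and 22. Each genotype and time had 2 libraries, so each genotype had 12 and the series 24. The sources used here give neither the sex and age of the flies nor how the mutant line was made. The control strain name w1118 denotes a loss-of-function allele of white (w), a gene of eye pigment transport. Differences between the lines other than cwo cannot be told apart from the cwo mutation in this design.

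The red eye colour of the fly is made from pteridines, the drosopterins, and the brown colour from ommochromes, which derive from tryptophan. The pteridine pathway starts from the nucleotide GTP and leads through an intermediate shared with tetrahydrobiopterin, the cofactor of the enzymes that hydroxylate aromatic amino acids. In adult heads, pteridines are stored in granules of the pigment cells that surround each facet of the eye.

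Of the genes whose products lead from GTP to drosopterins, se, Pu and pr fell in the mutant. The gene cl fell less, and its call was lost in 15 of 37 alternative fits. The largest drop was that of se (sepia), which encodes the enzyme that makes the pyrimidodiazepine precursor of drosopterins. Pu (Punch), encoding GTP cyclohydrolase I at the entry of the pathway, and pr (purple), encoding the next enzyme, 6-pyruvoyltetrahydropterin synthase, also fell. The gene ry (rosy), whose product xanthine dehydrogenase turns pterins into isoxanthopterin, rose. Over all times 5 of the 7 genes passed an adjusted p of 0.05 (edgeR quasi-likelihood test, Benjamini-Hochberg), 1 higher and 4 lower in the mutant. Among the 11095 genes tested, 28% passed, 14.1% higher and 13.9% lower. All 12 mutant libraries lay below all 12 wild-type libraries for se, Pu and pr, which held for 0.856% of all genes. Heads are mixed tissue, so fewer cells of a type and less RNA per cell cannot be told apart.

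Depth was 11319605 to 19638611 counts per library. The gene cwo itself was at 51.1 to 174 CPM (counts divided by the scaled library size) in wild type and at 242 to 912 in the mutant (SE of the log2 fold change of 2.44 was 0.07), so the labels separate the libraries. Its count does not show whether the transcript is functional. The gene w was at 5.69 to 21.5 CPM in wild type and at 140 to 518 in the mutant. Wild-type ZT2 replicate 2 stood apart, with a median Spearman correlation to the other libraries of 0.893, against 0.953 to 0.982 for the rest. That library and wild-type ZT22 replicate 1 were the lowest in long transcripts: the log2 level of genes in the upper quartile of transcript length, minus that of the lower quartile, was -0.90 and -1.04 in them (the low-long pair hereafter). In the other wild-type libraries this balance ran from -0.49 to 0.24 and in the mutant from -0.29 to 0.58. It moves with genotype, and its part in a gene's difference was addressed by a fit with length offsets, which take out each library's trend on transcript length. Eye markers were present in every library. Pigment cell and lens markers summed to 1865 to 5330 CPM in wild type and 1945 to 3706 in the mutant. Of these 6 markers 1 was called higher and 2 lower, and none was at 0 in any library. Crys, a lens crystallin listed as Cry, had the largest change (-1.60 ± 0.14). The other calls were those of retinin (0.50 ± 0.16) and Pdh (-0.37 ± 0.12), lost in 14 and 15 of 37 alternative fits. Photoreceptor markers summed to 69200 to 88440 CPM in wild type and 88620 to 110100 in the mutant, with 7 of 14 higher and 1 lower. Of all genes 14.1% were called higher and 13.9% lower. The part of cell composition in the results below was not tested.

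**Figure D1:**
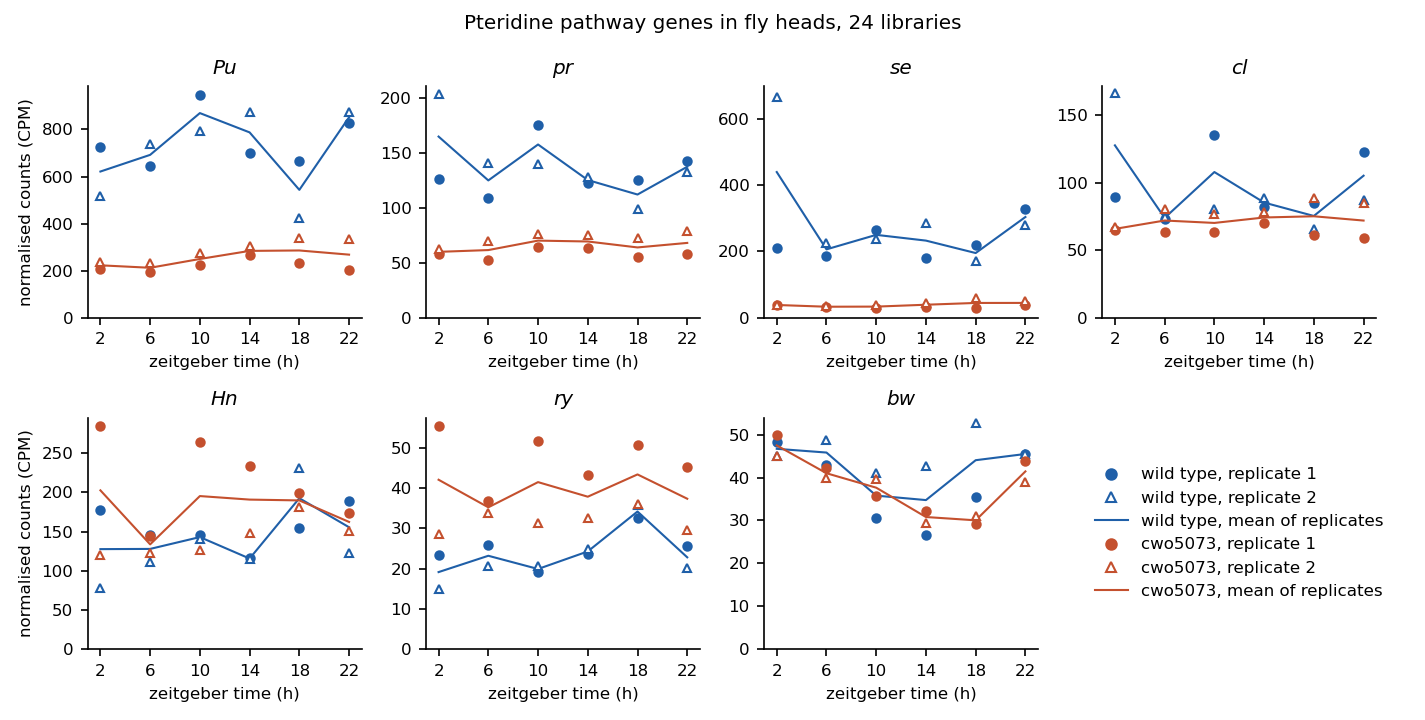
Normalised counts (CPM, linear axes from 0) of the 7 pteridine genes against zeitgeber time in hours, with each library as a point and the mean of both replicates as a line. The mutant points of Pu, pr and se lie below every wild-type point, from 27.8 to 59.6 CPM against 172 to 668 for se, while those of ry lie above the wild type of the same time at all 6 times.

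The gene se lies on 3L from 8520552 to 8521489 (dm6, plus strand) and has 1 transcript of 825 nt. In wild type its level was 172 CPM at the lowest, 232 at the median and 668 at the highest, and in the mutant 27.8, 37.7 and 59.6. The mean fell from 271 ± 134 to 38.6 ± 9.3 CPM (SD, n = 12 each). The highest value came from wild-type ZT2 replicate 2; without it and wild-type ZT22 replicate 1 the wild-type libraries ran from 172 to 286 CPM. At ZT2 the wild-type pair held 212 and 668 CPM and the mutant pair 38.7 and 37.6. At ZT10 it held 264 and 237 against 27.8 and 38.6, and at ZT18 218 and 172 against 28.9 and 59.6. The log2 fold change over all times was -2.77 ± 0.18 (SE, adjusted p = 5.1e-08), the 44th lowest of 11095 genes. The change ran from -3.53 ± 0.46 at ZT2 to -2.14 ± 0.44 at ZT18 and was called at each of the 6 times. With the length offsets the value over all times was -2.59, and without the low-long pair -2.57.

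Pu spans 2R from 21175315 to 21182608 on the plus strand and makes the enzyme that commits GTP to pteridines. It had 422, 731 and 947 CPM (lowest, median, highest) in wild type and 192, 235 and 341 in the mutant. The means were 728 ± 152 and 253 ± 50 CPM (SD, n = 12). Every mutant library was below every wild-type library. The log2 fold change was -1.51 ± 0.12 (SE, adjusted p = 2.4e-07). The drop was largest at ZT10, from 947 and 792 CPM in wild type to 223 and 276 under cwo5073 (-1.80 ± 0.29, adjusted p = 0.00368). It was smallest at ZT18, at 664 and 422 against 230 and 341 CPM (-0.93 ± 0.28, adjusted p = 0.240), the one time at which Pu was not called.

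The gene pr, on 2L from 20073719 to 20075458 (minus strand), has 1 transcript of 1073 nt. Its enzyme converts the product of the Punch enzyme to 6-pyruvoyltetrahydropterin, from which both tetrahydrobiopterin and drosopterins derive. Wild-type libraries held 98.9, 130 and 203 CPM (lowest, median, highest) and mutant libraries 52.8, 63.7 and 78.5. The mean fell from 137 ± 28 to 65.4 ± 8.8 CPM (SD, n = 12), a log2 fold change of -1.06 ± 0.10 (adjusted p = 2.8e-06). The wild-type pair lay above the mutant pair at all 6 times, and the change was called at ZT2 (-1.46 ± 0.25) and ZT10 (-1.17 ± 0.25). The highest pr library was again wild-type ZT2 replicate 2, and without it and wild-type ZT22 replicate 1 the ZT2 difference was no longer called (-1.09, adjusted p = 0.0750).

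The product of cl (clot), a small thioredoxin-like protein, is needed with the sepia enzyme to make pyrimidodiazepine. The gene lies on 2L from 5520135 to 5521382 (plus strand). Its libraries overlapped between genotypes, at 65.5, 86.2 and 166 CPM (lowest, median, highest) in wild type and 58.8, 68.3 and 88.9 in the mutant. The log2 fold change of -0.39 ± 0.13 (adjusted p = 0.0309) was no longer called in 15 of 37 alternative fits. It was -0.22 (adjusted p = 0.489) over ZT6 to ZT18, -0.22 (adjusted p = 0.0558) with length offsets and -0.26 (adjusted p = 0.0894) without the low-long pair. At single times cl was called at ZT2 only, at -0.96 ± 0.31 (adjusted p = 0.04999), and without wild-type ZT2 replicate 2 this was -0.45 (adjusted p = 0.559).

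The gene ry lies on 3R from 13032528 to 13038020 (plus strand) with 1 transcript of 4337 nt, the longest among the 7 genes. Xanthine dehydrogenase also makes uric acid from purines. Wild-type libraries held 14.8, 23.5 and 35.7 CPM (lowest, median, highest) and mutant libraries 28.6, 36.4 and 55.5, and 7 of the 12 mutant libraries were above all wild-type libraries. These were all mutant libraries of replicate 1 (36.7 to 55.5 CPM) and, of replicate 2, only that at ZT18 (36.0 CPM). The mean rose from 23.9 ± 5.8 to 39.5 ± 9.3 CPM (SD, n = 12), a log2 fold change of 0.75 ± 0.13 (adjusted p = 0.00109). It was 0.55 with length offsets and 0.73 without the low-long pair, and it was called in each of 37 alternative fits. The mutant pair lay above the wild-type pair at all 6 times, at 55.5 and 28.6 against 23.4 and 14.8 CPM at ZT2 and at 50.7 and 36.0 against 32.6 and 35.7 at ZT18. How many of all genes were apart at every time, or had 7 mutant libraries above all wild-type ones, was not counted. The difference passed the test at ZT2 (1.13 ± 0.33, adjusted p = 0.0414), where without wild-type ZT2 replicate 2 it was 0.82 (adjusted p = 0.490).

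Hn (Henna) and bw (brown) did not pass. Hn, on 3L from 7760453 to 7763166 (plus strand), encodes phenylalanine hydroxylase, which uses tetrahydrobiopterin. It had 77.6, 143 and 231 CPM (lowest, median, highest) in wild type and 120, 162 and 285 in the mutant. Its log2 fold change was 0.32 ± 0.18 (adjusted p = 0.176). At single times its log2 fold change ran from -0.02 to 0.72, with none called; with wild-type ZT2 replicate 1 left out the value over all times was 0.44 (adjusted p = 0.0393). The gene bw, on 2R from 23527805 to 23538499 (minus strand), encodes the half-transporter that pairs with the product of w to bring pteridine precursors into the pigment granule. It had 26.7, 44.0 and 52.7 CPM in wild type and 29.1, 39.3 and 49.9 in the mutant (-0.15 ± 0.09, adjusted p = 0.187), and single times ran from -0.55 to 0.07 with none called. Its partner w differed by a log2 fold change of 4.66 ± 0.18 (adjusted p = 9.1e-11), between a strain named for its w allele and the mutant line.

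**Figure D2:**
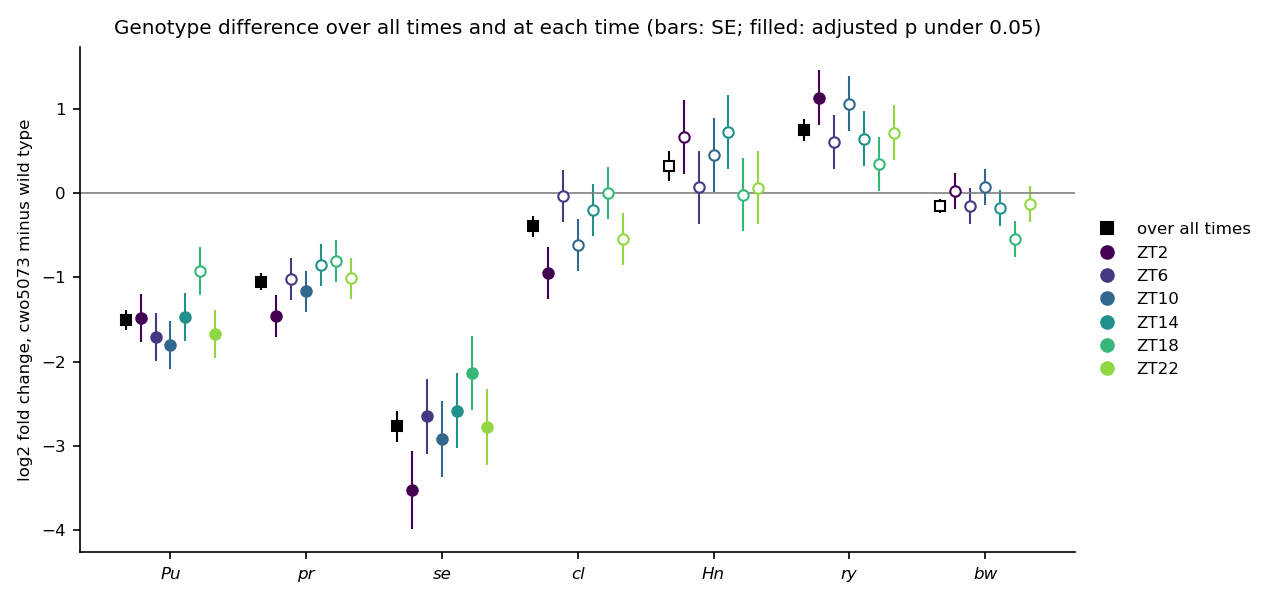
Log2 fold change (mutant minus wild type, edgeR) of each gene over all times (squares) and at each time (circles); bars are the SE and filled symbols passed an adjusted p of 0.05. The gene se lies between -3.53 and -2.14 at all 6 times, and Hn and bw have open symbols only.

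At single times, with 2 libraries against 2, 5 of the 7 genes were called at ZT2, 2 at ZT6, 3 at ZT10, 2 at ZT14, 1 at ZT18 and 2 at ZT22. Over all genes the called shares were 14.5%, 0.829%, 1.26%, 0.811%, 0.757% and 1.16%. Leaving out 1 library of a time ended some of these calls, and each time but ZT2 had a library without which none of the 7 genes was called there. Without the low-long pair 2 genes were called at ZT2, and 91 of all genes. The test of whether the genotype difference varied with time called none of the 7 genes (adjusted p from 0.903 to 0.925). It called 0 of 11095 genes (0%), with 267 at an unadjusted p under 0.05; no other tool was run for it, and without wild-type ZT2 replicate 1 it called 2106 genes and still none of the 7.

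Daily courses were fitted with a 24 h cosine and sine for each genotype. Calls and p-values come from edgeR on all 24 libraries. Amplitudes, peaks and their SE come from least squares on log2 CPM within each genotype, so an SE and a p-value rest on different spreads. The edgeR fit called 5.62% of genes rhythmic in wild type and 1.09% in the mutant, and no pteridine gene in either. The nearest was bw in the mutant, with an amplitude of 0.32 ± 0.05 log2 units and a peak at ZT 3.09 ± 0.55 (SE, unadjusted p = 0.00278, adjusted p = 0.143). In wild type bw had an amplitude of 0.24 ± 0.10 (unadjusted p = 0.0387, adjusted p = 0.155), and with length offsets this passed (adjusted p = 0.0360). The rhythm difference between genotypes called 0 of all genes (0%), with 550 at an unadjusted p under 0.05. Its adjusted p for the 7 genes ran from 0.689 to 0.919.

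The transcript tables separate the Pu transcripts by their start. NM_166430 (1625 nt) starts at 21175315, whereas NM_166431 (1793 nt) and NM_079077 (1744 nt) start at 21179118 and 21179119, inside the long first intron of the former. All 3 have 5 exons and share all but the first, so reads there are divided by the submitters' software. The drop of Pu was that of the upstream transcript. NM_166430 had 202, 426 and 534 FPKM (lowest, median, highest) in wild type and 86.6, 118 and 189 in the mutant, with no overlap. Its difference on the log2(FPKM + 1) scale was -1.72 ± 0.17 (limma, adjusted p = 2.4e-05), and it was called in each of 28 alternative fits.

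The downstream transcripts were low in both genotypes and did not follow. NM_166431 was at 0.268 to 7.66 FPKM in wild type and 3.58 to 15.9 in the mutant (0.90 ± 0.28, adjusted p = 0.0647). NM_079077 was at 7.75 to 19.0 and 6.17 to 19.1 FPKM (-0.20 ± 0.17, adjusted p = 0.488). Of the Pu FPKM the upstream transcript took 95.9 ± 1.4% in wild-type and 85.2 ± 6.0% in mutant libraries (SD, n = 12), and NM_166431 went from 1.11 ± 0.58% to 7.03 ± 3.7%. The mutant share of the upstream transcript differed between the replicate series, with means of 80.0% in series 1 and 90.4% in series 2, against 95.6% and 96.2% in wild type. The limma diffSplice test of each transcript against the others of its gene called NM_166430 (-2.07 ± 0.27, adjusted p = 1.1e-06) and NM_166431 (1.86 ± 0.27, adjusted p = 8.5e-06). These were 2 of the 9 testable transcripts of the 7 genes, beside 7.02% of all transcripts, and both calls held in each of 28 alternatives. Since each transcript is set against the others of its gene, the 2 calls are not separate. The gene CG4286 lies in the same Pu intron on the other strand, from 21177754 to 21178636, and was at 0.17 to 1.32 CPM over all libraries.

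**Figure D3:**
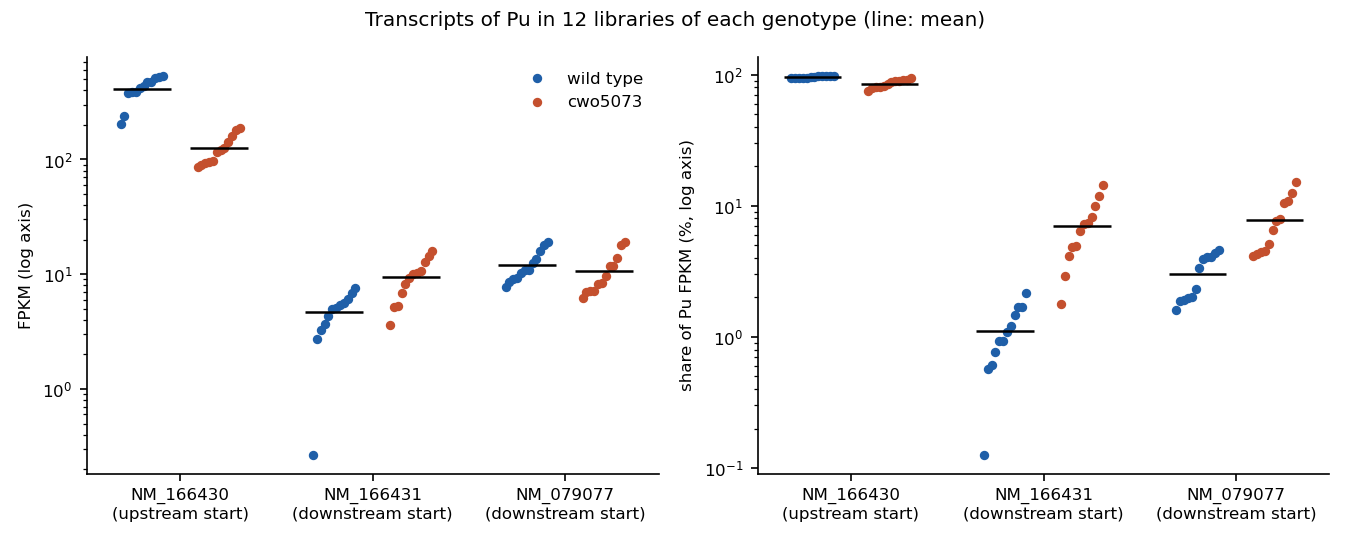
FPKM (left, log axis) and share of the summed Pu FPKM (right, percent, log axis) of the 3 Pu transcripts in the 12 libraries of each genotype, ordered by value, with lines at the means. NM_166430, with the upstream start, falls from 202 to 534 FPKM to 86.6 to 189, while the ranges of both downstream transcripts overlap between genotypes.

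Of the 15 transcripts of the 7 genes 13 were tested, and 6 were called, 1 higher and 5 lower. Of all transcripts 7.78% were called, 3.49% higher and 4.29% lower. Those of se (-2.74 ± 0.16), pr (-1.07 ± 0.10) and ry (0.60 ± 0.14, adjusted p = 0.0188) are their genes' only ones. Within Hn, NM_001014573, whose start at 7761367 is the farthest downstream, fell from 17.0 ± 8.3 to 7.60 ± 3.9 FPKM (-1.05 ± 0.28, adjusted p = 0.0349). The main Hn transcript NM_001274613 was at 65.8 ± 30 and 91.4 ± 28 FPKM (0.85 ± 0.53, adjusted p = 0.333). In wild-type ZT2 replicate 2 all Hn FPKM was assigned to NM_001014573 and the others were listed at 0. Within bw, NM_079100 fell from 3.81 ± 2.6 to 1.87 ± 0.64 FPKM (-0.63 ± 0.17, adjusted p = 0.0417) and the main transcript NM_001299840 was at 12.0 ± 4.9 and 12.2 ± 2.3. The calls of NM_001014573 and NM_079100 were lost in 16 and 18 of 28 alternative fits. The main cl transcript NM_135086 just missed (-0.43 ± 0.13, adjusted p = 0.0536), and the other cl transcripts were too low to test.

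Summed over transcripts, FPKM, which is per length, gave an order of levels among the 7 genes. In wild type this was Pu (431 ± 106 FPKM, SD, n = 12), se (302 ± 92), cl (146 ± 30), pr (120 ± 15), Hn (89.4 ± 29), bw (15.8 ± 3.5) and ry (5.33 ± 1.5). Neighbours whose ranges over libraries did not overlap were se and cl, Hn and bw, and bw and ry. In the mutant Pu remained first (145 ± 33 FPKM), followed by cl (109 ± 18), Hn (108 ± 30), pr (57.2 ± 9.3), se (44.0 ± 12), bw (14.1 ± 2.4) and ry (8.47 ± 1.7). There cl and Hn were not ordered beyond their spread, with cl higher in 7 of 12 libraries. By its mean on this scale, se stood above cl, pr and Hn in wild type and below them in the mutant, where pr was above se in 11 of 12 libraries. The authors' gene FPKM table gives another order, since its ratio to the summed transcript FPKM differs between genes, from 0.157 for se to 1.82 for ry, and varies little or not at all between libraries. There the wild-type order was Pu, cl, pr, se, Hn, bw and ry, with se at 47.5 ± 14 FPKM, below cl (128 ± 27) and pr (86.0 ± 11). In the mutant se was last, at 6.92 ± 1.8 FPKM, so where se stands among the genes depends on the table. On the CPM scale the log2 ratio of se to pr was 0.91 ± 0.33 in wild-type libraries and -0.78 ± 0.25 in mutant ones (SD, n = 12), and its ranges, 0.55 to 1.72 and -1.21 to -0.28, did not overlap.

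Some libraries stood out for several of the genes at once. Wild-type ZT18 replicate 2, the wild-type library with the highest balance of long over short transcripts (0.24), had the lowest wild-type value of Pu, pr, se and cl and the highest of Hn, ry and bw. Wild-type ZT2 replicate 2, low in long transcripts, had the highest of pr, se and cl and the lowest of Hn and ry, with Pu, at 519 CPM, below the wild-type median. In the mutant the 2 replicate numbers formed series that shared differences across times: replicate 2 was higher than replicate 1 for Pu, pr and cl at every time. For Hn and ry replicate 1 was the higher at every time. The ry means were 47.1 ± 6.8 CPM in mutant replicate series 1 and 31.9 ± 2.7 in series 2 (SD, n = 6), a log2 difference of -0.55 ± 0.12 (adjusted p = 0.0404), and 1.53% of all genes were called in this contrast.

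Hn differed by -0.59 ± 0.20 (adjusted p = 0.134) and Pu by 0.38 ± 0.13 (adjusted p = 0.134) between the mutant series, and pr (0.31), se (0.42), cl (0.32) and bw (-0.05) were not called either. The ry call was lost with length offsets (-0.39, adjusted p = 0.148), without a filter on low counts, and in 11 of 12 fits leaving out 1 mutant library. The length balance of mutant libraries was 0.31 to 0.58 in series 1 and -0.29 to 0.29 in series 2. In wild type the same contrast called 0 genes (0%), with 1105 at an unadjusted p under 0.05. With the replicate series as a random block, the genotype calls of se (-2.75), Pu (-1.51), pr (-1.06) and ry (0.72) remained and that of cl was lost (adjusted p = 0.120).

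**Figure D4:**
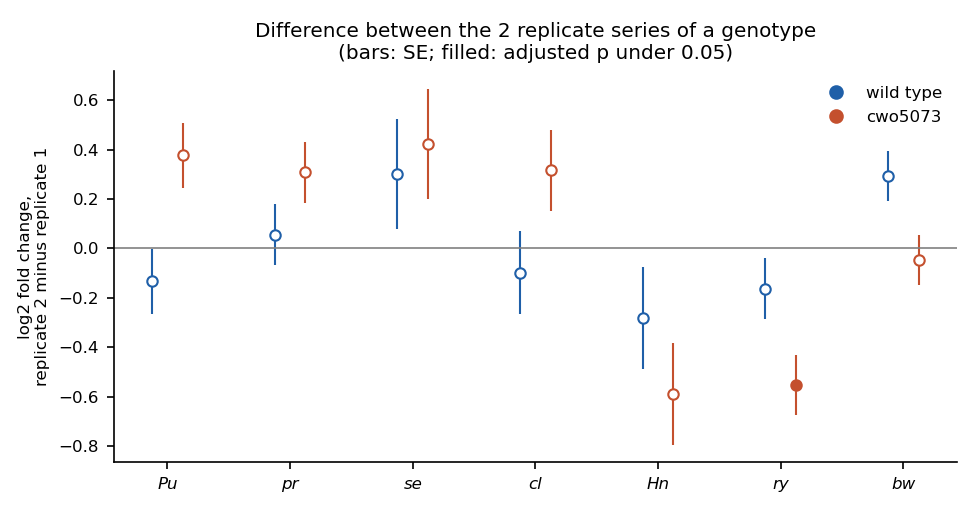
Log2 fold change between replicate series 2 and 1 of each genotype (edgeR, bars are the SE, filled at an adjusted p under 0.05), with 6 libraries in each series. Mutant ry (-0.55) is the one filled point; mutant Pu, pr, se and cl are above 0 and mutant Hn and ry below it.

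Upstream of the pathway, genes of purine and GTP synthesis were mostly higher in the mutant. Of 11 tested, 7 rose and 1 fell, beside 14.1% higher and 13.9% lower of all genes. The median log2 fold change was 0.36, beside -0.01 over all genes. The largest were ade5, from 95.0 ± 37 to 250.3 ± 73 CPM (1.44 ± 0.18, adjusted p = 3.6e-05), ade3, from 25.5 ± 6.1 to 67.5 ± 24 (1.42 ± 0.16, adjusted p = 1.9e-05), and ade2, from 50.0 ± 21 to 97.1 ± 27 (1.01 ± 0.16, adjusted p = 0.000408). All 3 encode enzymes of the de novo synthesis of purines. For ade3 every mutant library was above every wild-type library, and 186 of the 11095 genes tested were fully apart in either direction. With length offsets these 3 values were 1.35, 1.19 and 0.83, all still called. Prat2, CG11089, AdSL and bur, the gene of GMP synthase, rose by 0.26 to 0.50, and ras, the gene of IMP dehydrogenase on the way to GTP, fell by 0.22. Of these, AdSL had an adjusted p of 0.0061 (edgeR). The others were nearer the threshold, at 0.044 for Prat2, 0.031 for CG11089, 0.048 for bur and 0.038 for ras. These calls were not followed through the alternative fits.

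**Figure D5:**
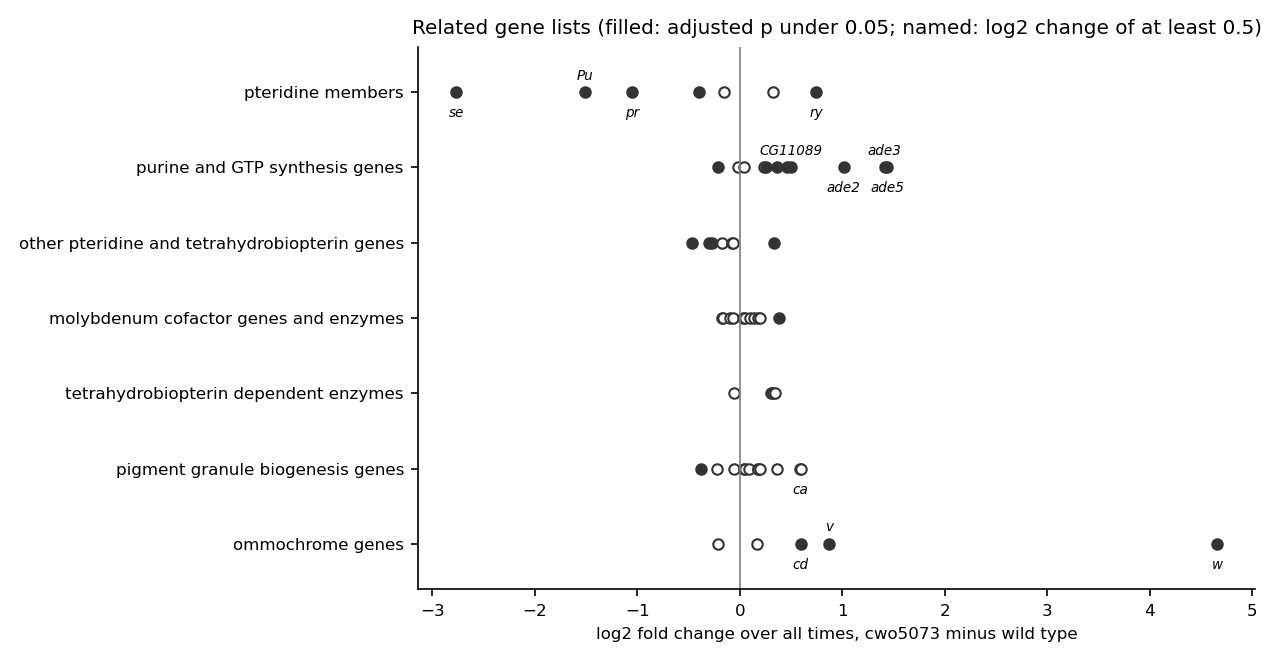
Log2 fold change over all times (mutant minus wild type, edgeR) of each tested gene in the pteridine set and 6 related lists; filled points passed an adjusted p of 0.05, and those of at least 0.5 are named. The purine genes ade2, ade3 and ade5 lie at 1.01 to 1.44 and w at 4.66. The gene cn, low in both genotypes (0 to 2.76 CPM in wild type and 0 to 0.954 in the mutant), is not drawn.

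Of 7 other genes of pteridine and tetrahydrobiopterin metabolism, 1 rose and 3 fell (median -0.17), beside 14.1% higher and 13.9% lower of all genes. DhpD, encoding dihydropterin deaminase, rose from 33.8 ± 3.1 to 42.7 ± 4.4 CPM (0.33 ± 0.06, adjusted p = 0.00155). GstO3 (-0.46 ± 0.09, adjusted p = 0.00259) and GstO2 (-0.31 ± 0.10, adjusted p = 0.0357), omega-class glutathione transferases like the sepia enzyme, fell. The GstO2 call was lost in 18 of 37 alternative fits, with values as small as -0.14. Pcd, encoding the pterin carbinolamine dehydratase that recycles the cofactor, fell by 0.27 ± 0.09 (adjusted p = 0.0310). Sptr, Dhpr and GstO1 did not pass, at -0.06, -0.17 and -0.08. Among the genes of the molybdenum cofactor, which xanthine dehydrogenase needs, and its other enzymes, 1 of 11 rose, CG6045 (0.38 ± 0.09, adjusted p = 0.00723), an aldehyde oxidase, and none fell (median 0.05). Of 4 tested enzymes that use tetrahydrobiopterin, Hn included, 1 passed, the nitric oxide synthase gene Nos (0.31 ± 0.10, adjusted p = 0.0402), a call lost in 26 of 37 alternative fits. Of the others, ple was at 0.34 and Trh at -0.05.

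Among the genes of the brown pigment, besides w, v (0.87 ± 0.17, adjusted p = 0.00196, edgeR), the first enzyme of ommochrome synthesis, and cd (0.60 ± 0.13, adjusted p = 0.00560) rose. With w, for whose allele the control strain is named, 3 of 6 genes rose and none fell, beside 14.1% higher and 13.9% lower of all genes. Of 12 genes of pigment granule formation 1 rose, ca (0.59 ± 0.17, adjusted p = 0.0216), and 1 fell, or (-0.38 ± 0.11, adjusted p = 0.0189), with a median of 0.13, fewer than the 28% of all genes. Markers of other head tissues also differed: 4 of 10 glial and 3 of 8 neuronal markers rose and none fell, 5 of 7 fat body markers rose and 1 fell, and 5 of 10 muscle markers fell, beside 14.1% higher and 13.9% lower of all genes. The neuronal calls were those of brp, futsch and Syt1, lost in 22, 12 and 6 of 37 alternative fits. Their summed CPM in wild type and mutant was 1678 to 2397 and 2108 to 2358 for glia, 4242 to 8394 and 5351 to 7088 for neurons, 5509 to 35100 and 11410 to 66940 for fat body, and 7019 to 9954 and 5364 to 7100 for muscle. Of the tested fat body markers Fbp1 was at 0 in a wild-type library. Those that rose included the yolk protein genes Yp1, Yp2 and Yp3, and the sex of the flies is not given. The Yp2 call was lost in 13 and that of Lsp2 in 1 of 37 alternative fits.

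Around the 7 genes, 68 tested genes lay within 20 kb, and 13 were called, 4 higher and 9 lower. This share, 19.1%, is below the 28% of all genes, so the neighbours are given as a description. Next to se, GstO3 ends 256 bases away, and GstO2 overlaps its last 61 bases on the other strand; the sources used here do not say whether counting used strand. Their changes were -0.46 and -0.31, against -2.77 for se. Next to Hn, the clock gene Clk, 66 bases away on the other strand, rose by 0.65 ± 0.11 (adjusted p = 0.000511), and CG7409, 5284 bases away, fell by 1.53 ± 0.15. Of the pr neighbours nesd (-0.85), Taf13 (-0.44), CG10721 (-0.42) and bwa (-0.23) fell. Beside Pu, CG30389 was higher (0.42) and hng1 lower (-0.28), and beside bw, RabX1 (0.48) and wmd (0.30) rose and Rrp4 fell (-0.45). The calls of hng1, Taf13 and CG30389 were lost in 24, 14 and 6 of 37 alternative fits. No neighbour of cl or ry was called among 12 and 9 tested (edgeR).

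The genes most like each member were sought by Pearson correlation of log2 CPM over the 24 libraries among 7839 genes. The libraries share genotype, depth and the length balance described above, so these values describe likeness only. The closest to Pu were CG18467 (0.966), CG10550 (0.961) and CG7409 (0.939), all lower in the mutant. The closest to se were CG14301 (0.977), MtnA (0.972), a metallothionein gene, and CG15611 (0.970). For pr they were Cpr62Bb (0.976), GstE14 (0.974) and se itself (0.968). For cl they were ATPsyn-b (0.969), CoVa (0.967) and Arpc4 (0.962), for ry CG1516 (0.956), CG30046 (0.944) and CG3829 (0.940), and for Hn Gel (0.940), CG15293 (0.921) and Ance-4 (0.910). The gene bw had the least close ones, GstZ2 (0.807), CG13957 (0.802) and CG16896 (0.749).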

How the data were processed

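Poly(A) RNA of 24 head libraries was read as 75 bp single-end reads, per the labels' protocols. Tools in the submitters' processing notes are DESeq2, StringTie and STAR 2.6.1d, on build dm6, without their roles. The deposited gene table holds expected counts, not normalized. They equalled, within 2, the sum over a gene's transcripts of coverage times length divided by 75, so they are estimates and not reads counted once. Per the file headers the transcript tables hold coverage, a signal per base, and FPKM. A second gene table deposited by the authors holds FPKM of 8489 genes and served as an alternative. Names turned into dates (5 genes, 0.0224% of counts) were left out.

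Counts were rounded to whole numbers and tested with edgeR 4.0.16 (filterByExpr on 12 groups, TMM, quasi-likelihood, 12-level group factor, no replicate term) in R 4.3.3. The contrast over all times is the mean of 6 mutant minus 6 wild-type groups, and p-values were adjusted over 11095 genes with a threshold of 0.05. Fold changes average log values over times. The 21548 transcripts that reached an FPKM of 1 in 2 or more libraries went into limma 3.58.1 on log2(FPKM + 1), which understates changes of low ones, and with diffSplice. The scripts were tested on simulated data. Simulated gene counts varied less between libraries than the data, whose common biological coefficient of variation was 0.26. They held no shared series or length differences, and genes at low counts were left unchanged. The recovered shares are therefore not the power of these data. At a set log2 size of 0.5, 77% of changed genes were recovered for the difference over all times. For the interaction, with the size doubled at ZT14, it was 16%, and for the rhythm difference 19%. At a set size of 1 these shares were 100%, 90% and 95%. The usage test also called 118 of the 13595 simulated transcripts without a set change. Alternatives were DESeq2 1.42.0, other scalings, filters and units, length offsets, blocks and leaving out libraries. Tables were joined with Python 3.11.15 and drawn with matplotlib 3.10.9.

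The labels do not say whether replicates come from separate collections, so p-values measure the spread between these libraries; chi-square per degree of freedom between replicates was 32.8 to 295. Replicate numbers paired mutant libraries across times (15 of 15 correlations of deviations over 0.1) but not wild type with mutant (3 of 6). The treatment text names fewer collection times than the titles, which were followed. The members, lists and tests were chosen with earlier results of these data known. Named genes are the members, w, cwo (added as the targeted gene), at most 3 called genes with the largest change of each list and neighbourhood, and the 3 likest genes of each member; others were named after their values were seen. Gene positions are those of the files and of the Ensembl annotation of dm6. Intervals of single shares were not needed.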

Additional observations from a re-analysis of the deposited data

How the results depend on the processing

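Over all times, se, Pu, pr and ry kept direction and call in each of 37 alternatives, bw stayed uncalled, Hn was called in 1, and cl lost its call in 15. The count of genes called, 3104, became 789 over ZT6 to ZT18, 1095 with the replicate series as a random block, 2032 and 1962 on gene FPKM + 1 and + 0.1, and 1973 to 5592 when 1 library was left out, the highest without wild-type ZT2 replicate 1. Single genes and transcripts lost a call in 318 cases; the cause was not tested.

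Without wild-type ZT2 replicate 2 and wild-type ZT22 replicate 1, a choice made after seeing the data, counts went from 1609 to 91 genes at ZT2 (5 to 2 pteridine genes), 92 to 140 at ZT6, 140 to 250 at ZT10, 84 to 139 at ZT18, 121 to 250 for mutant rhythms and 0 to 2 for the interaction. Without a filter ZT2 called 1022 genes, and the mutant series contrast 100 in place of 170 and 0 pteridine genes. With length offsets the pteridine genes called were 3 at ZT2, 2 at ZT18, 1 for wild-type rhythms and 0 between mutant series.

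Leaving out 1 library at a time gave these ranges of genes called: 66 to 5734 at ZT2 (1 to 6 pteridine genes), 27 to 141 at ZT6 (0 to 3), 48 to 236 at ZT10 (0 to 3), 37 to 129 at ZT14 (0 to 2), 42 to 140 at ZT18 (0 to 1) and 47 to 368 at ZT22 (0 to 3). The ranges were 0 to 2106 for the interaction, 383 to 1097 and 86 to 212 for wild-type and mutant rhythms, 0 to 1 for their difference, and 28 to 64 (0 to 1 pteridine genes) for the mutant series. They were 956 to 4798 for transcripts (4 to 10 of the pteridine genes) and 711 to 2719 for usage (2 to 5). Without wild-type ZT2 replicate 1 the interaction called 2106 genes, ZT2 5734, transcripts 4798 and usage 2719. The lone library left in a group is assumed to vary like the others.

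Signs turned only for values of Hn, bw, cl and NM_001299840 that were not called in the main analysis; without wild-type ZT2 replicate 1, Hn at ZT2 was called (1.38, adjusted p = 0.0358). With length offsets Hn at ZT18 was 0.0122, bw at ZT10 -0.0299, bw at ZT2 -0.26, the bw mutant series 0.0036 and cl at ZT6 0.0425. Without the low-long pair bw at ZT2 was -0.0319, cl at ZT18 0.00016 and NM_001299840 -0.12. With DESeq2 size factors cl at ZT18 was 0.0147 and with no filter 0.00065. Leaving out 1 library, Hn ran from -0.19 to 0.88 at ZT10, -0.28 to 0.29 at ZT18, -0.11 to 1.38 at ZT2, -0.21 to 0.41 at ZT22 and -0.12 to 0.27 at ZT6. The bw value ran from -0.13 to 0.29 at ZT10, -0.48 to 0.20 at ZT14 and -0.0717 to 0.0822 at ZT2, cl from -0.29 to 0.25 at ZT18 and -0.21 to 0.12 at ZT6, and NM_001299840 from -0.0864 to 0.58.

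With the replicate number as a block shared by both genotypes, 3586 genes and 5 pteridine genes were called over all times, and pr was also called at ZT6 (-1.02, adjusted p = 0.0456) and ZT22 (-1.03, adjusted p = 0.0354), NM_166431 (adjusted p = 0.0449) and NM_135086 (adjusted p = 0.0453). The block changed no other call of a pteridine gene or transcript. At single times, the SE of cl, Hn and bw was 0.21 to 0.44 on the log2 scale with 2 libraries a group.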
